A study of Homo sapiens with 3 samples.

Results

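Liver-enriched transcription factors were followed through their transcripts in PLC cells, an established line from a human hepatocellular carcinoma. The 8 genes were HNF4A, FOXA1, FOXA2, FOXA3, CEBPA, ONECUT1, ONECUT2 and PROX1, taken by name from the deposited gene tables, and all 8 were found among 55827 gene names present in every library. There were 3 libraries, 1 per group, each from cells infected for 48 hours with hairpin viruses. The shDIS3L2 library came from cells with DIS3L2 knocked down, a gene whose product is a exonuclease acting on uridylated transcripts. The shHNRNPU library, labelled shhnRNP U, came from cells with HNRNPU knocked down, a gene for a nuclear matrix protein that binds RNA. The control library carried a non-targeting hairpin, labelled NTC. With 1 library per group there was no replicate check, and no p-value was computed. The cells are a tumour line in culture and stand in for hepatocytes only in part, and the sources used here do not say how many hairpins were used per target.

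Hepatocytes owe their identity to a small set of DNA-binding proteins that bind many of the same liver promoters and enhancers and also each other's genes. HNF4A encodes a nuclear receptor that drives lipoprotein, clotting factor and metabolic genes. FOXA1, FOXA2 and FOXA3 encode forkhead proteins, the pioneer factors that open liver chromatin during development. CEBPA encodes a basic leucine zipper protein that drives metabolic genes and restrains proliferation. ONECUT1 (also called HNF6) and ONECUT2 encode cut-homeodomain proteins of liver and bile duct development, and PROX1 encodes a homeodomain protein needed for hepatoblast migration and for the lymphatic endothelium.

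Levels are FPKM, fragment counts normalised for transcript length and library size, and a range in parentheses after an FPKM is the interval deposited with it. Such a range speaks of estimation in a single library, and differences among cultures are not in it. Calls needed intervals that lay apart and a log2 ratio, taken after adding 1 to each FPKM, of 1 or more (higher) or of -1 or less (lower). In bulk RNA, fewer cells of a type and less RNA per cell cannot be told apart.

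In shDIS3L2, 4 of the 8 factors were called lower than in control and 0 higher: ONECUT1, CEBPA, FOXA3 and FOXA1. Among all 11787 loci with a mean of at least 1 FPKM, 7.58% were called lower and 8.95% higher in that comparison. In shHNRNPU, 2 of the 8 were called lower than in control and 0 higher: CEBPA and FOXA1. The background there was 7.46% lower and 8.32% higher. FOXA1 and CEBPA were thus called lower in both knockdowns, which share the control library. Setting shHNRNPU against shDIS3L2, 2 factors were called higher, ONECUT1 and FOXA3, and 0 lower, with 10.2% of loci called higher and 10.5% lower. Among the 10965 of these loci above 0 in every library, 5.63% in shDIS3L2 and 5.51% in shHNRNPU were called lower than control. Intervals lay apart at any size for 5 factors in shDIS3L2 against control, where 58.1% of loci had them apart, for 4 in shHNRNPU against control (58.4% of loci) and for 5 between the knockdowns (60.2% of loci). Of the 8 factors, 7 had a mean of at least 1 FPKM, and ONECUT2 did not. Their median log2 ratio against control was -1.11 in shDIS3L2, where that of all loci was 0.09, and -0.14 in shHNRNPU, where that of all loci was 0.12.

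**Figure D1:**
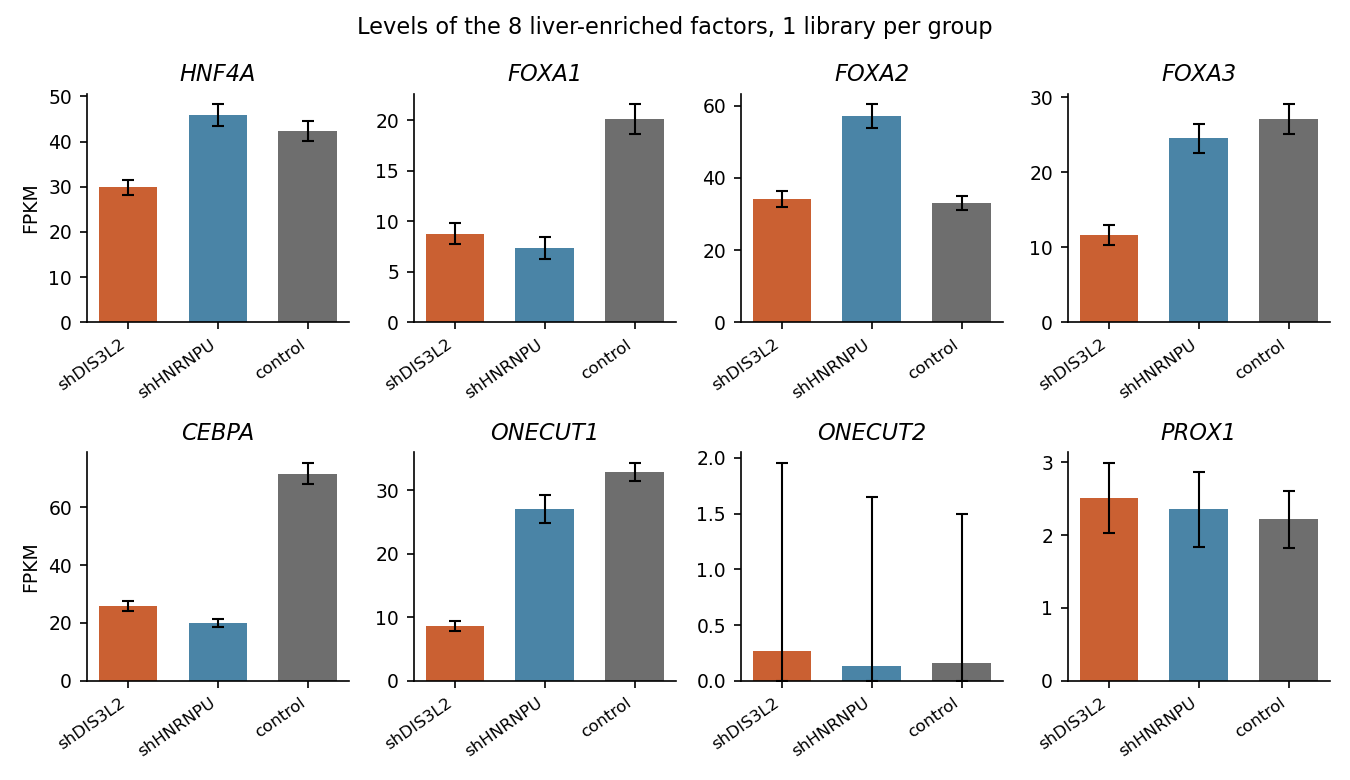
FPKM of each of the 8 factors (y axis, a separate scale per gene, from 0) in the shDIS3L2, shHNRNPU and control libraries, 1 library per bar, with the deposited interval as the error bar. CEBPA and FOXA1 stand lower in both knockdowns than in control, ONECUT1 and FOXA3 stand lowest in shDIS3L2, and FOXA2 stands highest in shHNRNPU.

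The targeted genes and the libraries as a whole were as follows. DIS3L2 stood at 3.23 FPKM (2.31 to 4.15) in shDIS3L2, against 7.61 (6.70 to 8.53) in control. HNRNPU stood at 33.5 FPKM (31.8 to 35.2) in shHNRNPU, against 178 (172 to 184) in control. Each target stood above control in the other knockdown, with intervals apart and short of the rule. DIS3L2 was at 11.2 FPKM (10.0 to 12.4) in shHNRNPU, and HNRNPU at 232 (224 to 241) in shDIS3L2. Between the knockdowns, DIS3L2 was called higher in shHNRNPU (log2 ratio 1.53) and HNRNPU lower (-2.76). Depth estimated from single-exon genes was 18.2 M fragments for shDIS3L2, 19.99 M for shHNRNPU and 22.8 M for control. Mitochondrial entries numbered 11 in shDIS3L2, 10 in shHNRNPU and 0 in control, and whether this touched the scaling of FPKM was not tested. The median log2 ratio of the 10965 loci above 0 in every library was 0.10 in shDIS3L2 and 0.13 in shHNRNPU, and 0.00 and -0.01 after median-of-ratios rescaling.

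HNF4A was called in neither knockdown. It stood at 29.8 FPKM (28.1 to 31.6) in shDIS3L2, 45.8 (43.4 to 48.2) in shHNRNPU and 42.3 (40.2 to 44.5) in control. The shDIS3L2 library was therefore the low one, at 70.5% of control with intervals apart, and the intervals of shHNRNPU and control overlapped. The log2 ratio was -0.49 in shDIS3L2 (-0.65 to -0.34 from the ends of the intervals), which missed the size rule, and 19.8% of loci had a lower ratio. In shHNRNPU the ratio against control was 0.11 (-0.03 to 0.26), or -0.04 after median-of-ratios rescaling. Against shDIS3L2, the shHNRNPU value was 1.54 times as high (log2 ratio 0.60, 0.45 to 0.76), with intervals apart and short of the rule.

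HNF4A has a pair of promoters far apart on chromosome 20, of which the downstream one is the main one in adult liver and the upstream one is used in the pancreas. The locus runs from 42984340 to 43061485 in shDIS3L2 and control (hg19) and begins 324 bases earlier in shHNRNPU, and a gene-level FPKM does not separate the promoters. Both start windows are shown to set the gene beside ONECUT1, a known activator of it, 250 bases before to 50 after the start, 5′ to 3′, from RefSeq on GRCh38.p14. Capitals mark the ONECUT motif, ATTGAT on either strand. The upstream window is at chr20:44355449-44355748, plus strand, and the downstream window at chr20:44400989-44401288, plus strand.
HNF4A upstream start: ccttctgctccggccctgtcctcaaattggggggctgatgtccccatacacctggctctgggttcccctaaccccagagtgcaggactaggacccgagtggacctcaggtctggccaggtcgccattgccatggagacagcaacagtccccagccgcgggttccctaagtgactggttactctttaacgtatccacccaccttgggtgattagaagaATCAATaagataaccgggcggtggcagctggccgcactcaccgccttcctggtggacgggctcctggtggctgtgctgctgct
HNF4A downstream start: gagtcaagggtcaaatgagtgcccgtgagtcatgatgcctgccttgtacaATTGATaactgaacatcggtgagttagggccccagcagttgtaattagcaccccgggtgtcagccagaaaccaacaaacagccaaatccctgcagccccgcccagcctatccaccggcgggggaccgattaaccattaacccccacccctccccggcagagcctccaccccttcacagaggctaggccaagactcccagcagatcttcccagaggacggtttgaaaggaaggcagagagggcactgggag

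Each window held 1 ONECUT motif, at position -33 from the upstream start and at position -200 from the downstream one. ATTGAT occurred in 6.26% of 35116 start windows of the same length. ONECUT1 had 0.262 times the control level in shDIS3L2 and 0.824 times in shHNRNPU, as described further on, while HNF4A had 0.705 and 1.08 times. A motif match describes the letters only and says nothing of binding in these cells. A link between the levels of ONECUT1 and HNF4A was not tested, and the ONECUT1 locus was assembled shorter in shHNRNPU.

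The 3 forkhead genes had different patterns. FOXA1 was called lower in both knockdowns, FOXA3 was called lower in shDIS3L2, and FOXA2 was called in neither. FOXA1 stood at 8.76 FPKM (7.73 to 9.79) in shDIS3L2, 7.36 (6.25 to 8.47) in shHNRNPU and 20.1 (18.6 to 21.5) in control. Both knockdown libraries were low and overlapped each other, and neither overlapped control. The log2 ratio against control was -1.11 (-1.37 to -0.86) in shDIS3L2 and -1.33 (-1.64 to -1.05) in shHNRNPU, or 43.6% and 36.6% of the control FPKM. 6.55% and 5.34% of loci had lower ratios. The locus is on chromosome 14 at 38059189 to 38069245 in shHNRNPU and control, and it was assembled 157 bases longer in shDIS3L2. TTC6, whose locus overlaps it, was listed at 0 in every library.

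FOXA2 was not called in either knockdown, and its level was highest in shHNRNPU. It stood at 34.2 FPKM (31.9 to 36.4) in shDIS3L2, 57.2 (53.9 to 60.4) in shHNRNPU and 33.0 (31.0 to 34.9) in control. The shHNRNPU library was the high one and its interval lay apart from both others, whose intervals overlapped. Against control the log2 ratio was 0.78 (0.61 to 0.94) in shHNRNPU, which is 1.73 times and short of the rule, or 0.62 after median-of-ratios rescaling. The ratio in shDIS3L2 was 0.05 (-0.13 to 0.22), or -0.06 after that rescaling. The locus, on chromosome 20 at 22561643 to 22566093, had the same bounds in all 3 libraries, although the entry was an assembled one in control and a reference one in both knockdowns.

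FOXA3 was called between the knockdowns as well as against control. It stood at 11.6 FPKM (10.3 to 12.9) in shDIS3L2, 24.5 (22.6 to 26.5) in shHNRNPU and 27.1 (25.2 to 29.1) in control. The shDIS3L2 library was low, and the intervals of shHNRNPU and control overlapped. The log2 ratio against control was -1.16 (-1.41 to -0.91) in shDIS3L2 and -0.14 (-0.35 to 0.07) in shHNRNPU. Set directly against shDIS3L2, shHNRNPU had a log2 ratio of 1.02 (0.76 to 1.28). That value only just met the rule, and it was 0.97 after median-of-ratios and 0.98 after upper-quartile rescaling, below it. The bounds, chromosome 19 at 46367247 to 46377055, were the same in every library.

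The make-up of the forkhead transcripts differed between libraries. FPKM are per length, so the levels of the 3 genes can be summed. The sum was 54.5 FPKM (49.9 to 59.2 from the ends of the intervals) in shDIS3L2, 89.0 (82.8 to 95.3) in shHNRNPU and 80.2 (74.8 to 85.5) in control. FOXA2 made up 62.7% of it (58.4% to 66.9%) in shDIS3L2, 64.2% (60.7% to 67.7%) in shHNRNPU and 41.1% (38.0% to 44.4%) in control. FOXA1 made up 16.1%, 8.26% and 25.05% in shDIS3L2, shHNRNPU and control. Both knockdowns thus had a larger FOXA2 share than control, at a smaller sum in shDIS3L2 and at a sum in shHNRNPU whose range overlapped that of control. The ratio of FOXA2 to FOXA1 was 3.90 in shDIS3L2, 7.77 in shHNRNPU and 1.64 in control.

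**Figure D2:**
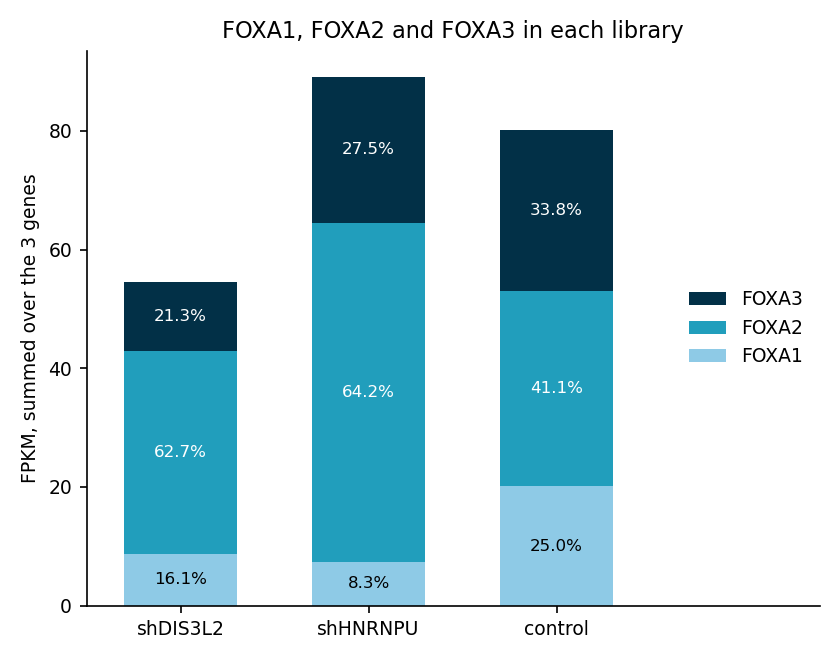
Summed FPKM (y axis, from 0) of FOXA1, FOXA2 and FOXA3 in each library, with each gene's share of the sum printed on its segment. FOXA2 takes 62.7% and 64.2% of the sum in shDIS3L2 and shHNRNPU, against 41.1% in control.

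The start windows of both forkhead genes called lower are shown because FOXA1 was low in both knockdowns and FOXA3 in one. They come from RefSeq on GRCh38.p14, at chr14:37595200-37595499, minus strand, and chr19:45864076-45864375, plus strand. FOXA2 is not in the sequence table. Capitals mark a forkhead motif, TGTTTNC on either strand, in FOXA1 and a TATA box, TATAAA, in FOXA3.
FOXA1: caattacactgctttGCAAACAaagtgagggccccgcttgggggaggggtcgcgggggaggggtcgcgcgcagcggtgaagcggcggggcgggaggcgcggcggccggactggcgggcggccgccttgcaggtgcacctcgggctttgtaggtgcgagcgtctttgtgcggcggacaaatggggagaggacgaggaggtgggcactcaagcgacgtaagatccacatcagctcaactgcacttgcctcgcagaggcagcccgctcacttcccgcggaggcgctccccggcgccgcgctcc
FOXA3: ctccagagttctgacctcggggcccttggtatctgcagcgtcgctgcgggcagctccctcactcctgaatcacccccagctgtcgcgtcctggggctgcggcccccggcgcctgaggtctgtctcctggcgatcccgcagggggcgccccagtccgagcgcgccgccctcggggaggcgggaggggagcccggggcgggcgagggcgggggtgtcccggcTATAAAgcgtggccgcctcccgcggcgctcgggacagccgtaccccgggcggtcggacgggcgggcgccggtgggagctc

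The FOXA1 window held 1 forkhead motif, at position -235, and 18% of all windows hold one. The FOXA3 window held its TATA box at position -30, against 11.5% of windows with TATAAA on either strand. The GC content was 69.3% for FOXA1 and 76.3% for FOXA3, against a median of 58.7% over all windows.

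Neighbouring transcripts gave further context for the forkhead genes. LINC00261, a long noncoding RNA next to FOXA2 that is known to be co-expressed with it in endoderm, stood at 8.99 FPKM (7.85 to 10.1) in shDIS3L2, 7.61 (6.81 to 8.41) in shHNRNPU and 15.04 (14.02 to 16.1) in control. It was low in both knockdowns with intervals apart from control, at log2 ratios of -0.68 and -0.90 that missed the rule, while FOXA2 itself was highest in shHNRNPU. IRF2BP1, a transcriptional corepressor gene downstream of FOXA3, stood at 24.0 FPKM in shDIS3L2, 55.4 in shHNRNPU and 47.1 in control. Its log2 ratios of -0.94 and 0.23 missed the rule against control, and shHNRNPU against shDIS3L2 was called higher at 1.17, as it was for FOXA3 (1.02). SYMPK, a gene of RNA 3' end processing on the other side of FOXA3, stood at 41.4, 30.8 and 31.8 FPKM in shDIS3L2, shHNRNPU and control, with log2 ratios of 0.37 and -0.05.

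CEBPA was the most abundant of the 8 factors in control. Beside FOXA1, the other factor called lower in both knockdowns, CEBPA had the lower ratio in each. It had 25.9 FPKM (24.2 to 27.7) in shDIS3L2, 19.9 (18.5 to 21.4) in shHNRNPU and 71.7 (68.0 to 75.4) in control. Control was high, and the intervals of all 3 libraries lay apart from each other. The log2 ratio against control was -1.43 (-1.60 to -1.27) in shDIS3L2 and -1.80 (-1.97 to -1.62) in shHNRNPU, which is 36.2% and 27.8% of the control FPKM. 4.55% and 3.49% of loci had lower ratios. The ratio of shHNRNPU to shDIS3L2 was 0.770 (log2 ratio -0.36, -0.56 to -0.17), short of the rule. The locus, chromosome 19 at 33790840 to 33793470, had the same bounds in every library and carried a second name, AC008738.1, whose reads cannot be separated from it here.

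The CEBPA window, at chr19:33302485-33302784, minus strand (GRCh38.p14), is shown because both knockdowns were low at this gene. Capitals mark the TATA box.
CEBPA: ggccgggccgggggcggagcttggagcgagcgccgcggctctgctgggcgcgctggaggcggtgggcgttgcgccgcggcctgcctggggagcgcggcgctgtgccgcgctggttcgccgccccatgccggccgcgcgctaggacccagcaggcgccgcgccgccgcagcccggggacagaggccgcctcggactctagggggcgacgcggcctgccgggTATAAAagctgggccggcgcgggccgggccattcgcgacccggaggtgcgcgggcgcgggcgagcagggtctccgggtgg

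That TATA box lay at position -30, and the window was 80.7% G or C, above 98.2% of all start windows. It held none of the C/EBP motif TTGCNNAA (10.5% of windows) or the HNF4 motif CAAAGTCCA (0.384%) on either strand, which says only that those letters are not in this window. CEBPA-AS1, the divergent noncoding gene that begins beside it, was at 2.04 FPKM (1.499 to 2.58) in shDIS3L2, at a locus merged with another name, and listed at 0 in shHNRNPU and control. The control library listed 2 unnamed transcripts within those bounds, at 0.759 FPKM (0.482 to 1.04) and 0.788 FPKM (0.444 to 1.13), so its 0 does not mean that no fragments were assembled there.

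The other C/EBP genes had patterns of their own. CEBPB, whose protein serves the acute-phase and regenerative responses, stood at 164 FPKM (159.9 to 169) in shDIS3L2, 225 (220.1 to 230.4) in shHNRNPU and 94.3 (91.3 to 97.4) in control. Control was the low library here. The log2 ratio was 0.80 in shDIS3L2, short of the rule, and 1.25 in shHNRNPU, called higher. The ratio of CEBPB to CEBPA was therefore 6.34 in shDIS3L2 and 11.3 in shHNRNPU, against 1.32 in control. CEBPD stood at 9.14 FPKM in shDIS3L2, 14.1 in shHNRNPU and 22.7 in control, called lower in shDIS3L2 (-1.23) and not in shHNRNPU (-0.65). CEBPG stood at 21.6, 10.1 and 12.6 FPKM in shDIS3L2, shHNRNPU and control, with log2 ratios of 0.73 and -0.29 that missed the rule.

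ONECUT1 had the lowest ratio of the 8 in shDIS3L2. It stood at 8.61 FPKM (7.89 to 9.32) in shDIS3L2, 27.0 (24.9 to 29.2) in shHNRNPU and 32.8 (31.4 to 34.3) in control. The shDIS3L2 library was far below both others, and all 3 intervals lay apart. Its log2 ratio against control was -1.82 (-1.99 to -1.65) in shDIS3L2, 26.2% of the control FPKM, with 3.36% of loci lower. In shHNRNPU it was -0.27 (-0.45 to -0.10), short of the rule. The direct log2 ratio of shHNRNPU to shDIS3L2 was 1.55 (1.33 to 1.77), called higher, and 4.93% of loci had a higher one.

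The assembled locus of ONECUT1, on chromosome 15, differed between libraries, and FPKM depends on the assembled length. It ran from 53042106 in control and 53042105 in shDIS3L2, but from 53049637 in shHNRNPU, to 53083273 in all. In shHNRNPU an unnamed transcript of 2.86 FPKM was listed at 53042143 to 53046293, where the other libraries had ONECUT1 itself. Values involving shHNRNPU are therefore less certain than the comparison of shDIS3L2 with control, whose bounds differed by 1 base. Upstream, the noncoding RP11-209K10.2 stood at 5.68 FPKM (3.83 to 7.53) in shDIS3L2, 5.09 (3.35 to 6.83) in shHNRNPU and 13.99 (11.8 to 16.2) in control. It was called lower in both knockdowns (-1.17 and -1.30), with assembled bounds that also differed. Its locus began at 53092362 in control but at 53093811 in both knockdowns. Unnamed transcripts were listed before it, at 53092298 to 53093626 in shDIS3L2 (3.85 FPKM) and 53092389 to 53093545 in shHNRNPU (2.26 FPKM). In control, RP11-209K10.2 itself covered most of that stretch. How far its lower calls rest on this split was not tested.

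The ONECUT1 window, at chr15:52790287-52790586, minus strand (GRCh38.p14), is shown because ONECUT1 had the lowest ratio of the 8 in shDIS3L2. Capitals mark an E-box, CACGTG.
ONECUT1: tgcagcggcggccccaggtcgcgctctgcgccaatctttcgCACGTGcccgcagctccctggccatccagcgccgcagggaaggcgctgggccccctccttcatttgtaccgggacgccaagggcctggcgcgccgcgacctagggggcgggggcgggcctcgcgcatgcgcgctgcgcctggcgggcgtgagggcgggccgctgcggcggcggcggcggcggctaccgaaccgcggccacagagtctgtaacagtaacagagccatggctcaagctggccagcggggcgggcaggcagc

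The E-box lay at position -209 and occurs in 7.26% of windows, and the window was 75% G or C. Of the 4 genes called lower in shDIS3L2, CEBPA and FOXA3 shared a TATA box at the same position, and neither the ONECUT1 nor the FOXA1 window held TATAAA. The searched motifs did not overlap one another in any of these windows.

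ONECUT2 and PROX1 were weakly expressed. ONECUT2 stood at 0.267 FPKM (0 to 1.96) in shDIS3L2, 0.133 (0 to 1.65) in shHNRNPU and 0.162 (0 to 1.499) in control. All intervals reached 0 and overlapped, so no difference could be read, and the locus on chromosome 18 was merged with AC090340.1. ONECUT3, the remaining paralog, was below 0.1 FPKM in every library. PROX1 stood at 2.51 FPKM (2.03 to 2.99) in shDIS3L2, 2.36 (1.84 to 2.87) in shHNRNPU and 2.22 (1.82 to 2.61) in control. The intervals overlapped throughout. Its log2 ratios were 0.13 (-0.25 to 0.50) in shDIS3L2 and 0.06 (-0.35 to 0.46) in shHNRNPU. After median-of-ratios rescaling, the shHNRNPU ratio was -0.05. The 1 added to each FPKM limits how low such a ratio can go for a gene at 2.22 FPKM in control. These ranges therefore cannot be set against the ratios of CEBPA or ONECUT1. PROX1-AS1 stood at 0.763, 0.244 and 0.826 FPKM in shDIS3L2, shHNRNPU and control, with intervals that reached 0.

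**Figure D3:**
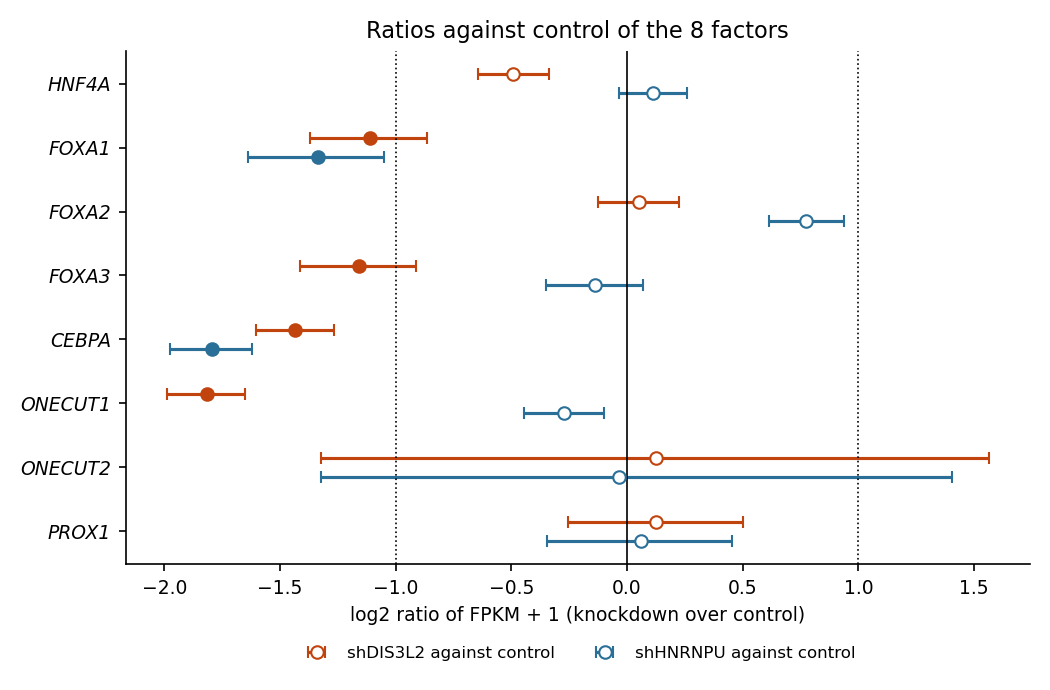
Log2 ratio of FPKM plus 1 against control (x axis) for each factor in shDIS3L2 (upper of each pair) and shHNRNPU (lower), with bars spanning the ratios that the ends of the deposited intervals allow. Filled points met the size rule, whose limits of -1 and 1 are dotted: 4 factors in shDIS3L2 and 2 in shHNRNPU, all lower.

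The order of the factors by level changed with these differences. In shDIS3L2 it was FOXA2, HNF4A, CEBPA, FOXA3, FOXA1, ONECUT1, PROX1 and ONECUT2, and the neighbours FOXA1 and ONECUT1 overlapped. In shHNRNPU it was FOXA2, HNF4A, ONECUT1, FOXA3, CEBPA, FOXA1, PROX1 and ONECUT2, and ONECUT1 and FOXA3 overlapped. In control it was CEBPA, HNF4A, FOXA2, ONECUT1, FOXA3, FOXA1, PROX1 and ONECUT2, and FOXA2 and ONECUT1 overlapped. All other neighbours in these orders had intervals apart. The ratio of HNF4A to CEBPA was 1.15 in shDIS3L2, 2.30 in shHNRNPU and 0.590 in control. The summed level of the 8 factors was 122 FPKM in shDIS3L2, 184 in shHNRNPU and 229 in control.

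**Figure D4:**
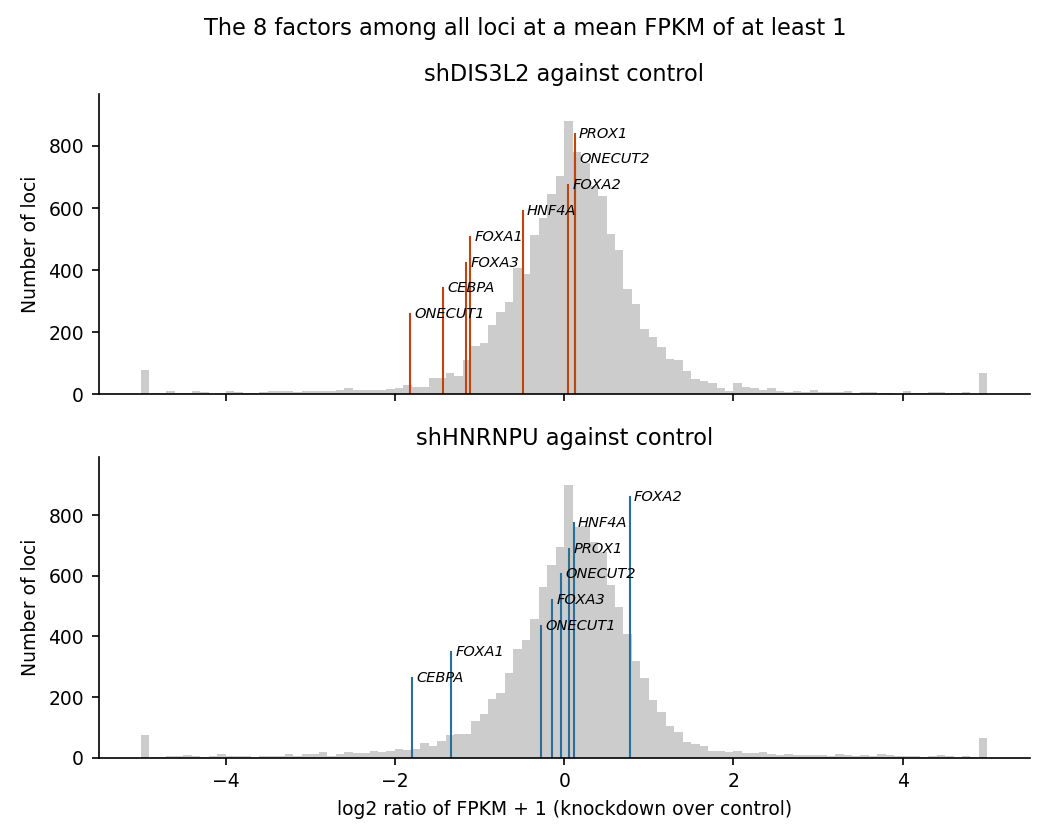
Number of loci (y axis) by log2 ratio of FPKM plus 1 against control (x axis, 0.1 per bin, values beyond -5 and 5 placed in the end bins) for 11787 loci with a mean of at least 1 FPKM, shDIS3L2 above and shHNRNPU below. Vertical lines, whose heights only separate the names, mark the 8 factors: ONECUT1, CEBPA, FOXA3 and FOXA1 lie in the lower tail in shDIS3L2, and CEBPA and FOXA1 in shHNRNPU.

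Among 35 relatives and network partners of the 8 factors, 24 had a mean of at least 1 FPKM. In shDIS3L2, 4 of them were called lower, 2 higher and 18 neither, with a median log2 ratio of -0.35. In shHNRNPU the calls were 3 lower and 1 higher, 20 were neither, and the median was -0.31. Of all loci, 7.58% were called lower and 8.95% higher in shDIS3L2, and 7.46% lower and 8.32% higher in shHNRNPU. Their medians were 0.09 and 0.12. The same shares and medians stand beside the counts of coregulators, targets and markers below. CREB3L3, an endoplasmic reticulum-bound factor of liver triglyceride metabolism, stood at 0.903 FPKM in shDIS3L2, 4.02 in shHNRNPU and 7.74 in control, called lower in shDIS3L2 (-2.20) and not in shHNRNPU (-0.80). KLF15, a factor of gluconeogenesis and amino acid breakdown, was called lower in both (-1.50 and -2.28), at 1.38, 0.389 and 5.74 FPKM in shDIS3L2, shHNRNPU and control. HNF4G, the paralog of HNF4A, was likewise called lower in both (-1.10 and -1.26), at 1.56, 1.28 and 4.48 FPKM.

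NR0B2 (SHP), a corepressor of HNF4A and other nuclear receptors, was the member of this list called in opposite directions. It stood at 27.1 FPKM (24.4 to 29.8) in shDIS3L2, 4.03 (3.10 to 4.96) in shHNRNPU and 11.9 (10.4 to 13.4) in control, called higher in shDIS3L2 (1.12) and lower in shHNRNPU (-1.36). FOXP1, a forkhead repressor, was called higher in shDIS3L2 (1.14) and not in shHNRNPU (0.06).

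Of 19 coregulators, 16 were measured at that level. In shDIS3L2, 1 was called higher, the Groucho-type corepressor TLE1 (1.34), 0 lower and 15 neither, at a median of 0.01. In shHNRNPU the calls were 1 higher and 1 lower, 14 were neither, and the median was 0.17. The lower one was the histone deacetylase HDAC1 (-1.04), at 59.4 FPKM against 124 in control. The higher one, NCOR1, was listed at 0 in control and in shDIS3L2, so no fold is given for it.

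Known targets of the factors were then counted, from lists that share genes with one another. The 4 lists together name 46 genes besides the factors, of which 24 were measured at a mean of at least 1 FPKM. In shDIS3L2, 13 of these were called lower, 0 higher and 11 neither, with a median log2 ratio of -1.12. In shHNRNPU, 5 were called lower, 0 higher and 19 neither, with a median of -0.60. Against shDIS3L2, shHNRNPU had 9 called higher, 0 lower and 15 neither. These lists include liver genes already known to be low in these libraries, so their counts are no independent evidence.

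HNF4A targets had 11 of 17 called lower in shDIS3L2 and 3 of 17 in shHNRNPU, with medians of -1.13 and -0.58. APOA1, which encodes the chief apolipoprotein of HDL, stood at 18.9 FPKM in shDIS3L2, 184 in shHNRNPU and 311 in control. APOC3, an apolipoprotein that delays triglyceride clearance, stood at 7.59 FPKM in shDIS3L2, 89.0 in shHNRNPU and 109 in control. Both were called lower in shDIS3L2 (-3.97 and -3.67) and not in shHNRNPU (-0.76 and -0.28). F7, the gene of clotting factor VII, was called lower in both (-1.94 and -1.24), at 0.621, 1.64 and 5.23 FPKM in shDIS3L2, shHNRNPU and control. LIPC, which encodes hepatic lipase, was called lower in both (-1.51 and -2.19), at 23.8, 14.5 and 69.7 FPKM. G6PC, the last enzyme of gluconeogenesis, stood at 0.140 FPKM (0 to 0.492) in shDIS3L2, 2.18 (1.68 to 2.68) in shHNRNPU and 27.2 (25.5 to 28.9) in control, and it is on all 4 target lists. The counts of HNF4A targets stand beside an HNF4A level of 29.8 FPKM in shDIS3L2 and 45.8 in shHNRNPU, against 42.3 in control. A link between the level and the counts was not tested.

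FOXA targets had 6 of 10 called lower in shDIS3L2 and 3 of 10 in shHNRNPU, with medians of -1.12 and -0.69. ALB, the albumin gene, stood at 0.856 FPKM (0 to 2.38) in shDIS3L2, 5.21 (3.36 to 7.07) in shHNRNPU and 11.8 (10.1 to 13.5) in control, called lower in both (-2.78 and -1.04). AFP, alpha-fetoprotein, stood at 9.24 FPKM in shDIS3L2, 7.15 in shHNRNPU and 19.0 in control, called lower in shHNRNPU (-1.30) and just short in shDIS3L2 (-0.97). IGFBP1, an insulin-regulated binding protein of IGFs, was not called, at 204, 206 and 172 FPKM in shDIS3L2, shHNRNPU and control.

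C/EBP targets had 7 of 10 called lower in shDIS3L2 and 2 of 10 in shHNRNPU, with medians of -1.56 and -0.60. CEBPA stood at 25.9, 19.9 and 71.7 FPKM in shDIS3L2, shHNRNPU and control, and CEBPB at 164, 225 and 94.3. Whether these levels bear on the counts was not tested. ORM1, an acute-phase glycoprotein gene with a near-identical copy, stood at 17.96 FPKM in shDIS3L2, 167 in shHNRNPU and 186 in control. SERPINA1 and TF, which encode alpha-1-antitrypsin and transferrin, had log2 ratios of -1.997 and -2.22 in shDIS3L2, and of -0.77 and -0.62 in shHNRNPU, where neither was called.

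ONECUT targets had 3 of 6 called lower in shDIS3L2 and 1 of 6 in shHNRNPU, with medians of -0.80 and -0.24, and that list includes HNF4A and FOXA2. PCK1, the gluconeogenic enzyme, stood at 0.126 FPKM (0 to 0.549) in shDIS3L2, 1.63 (1.07 to 2.198) in shHNRNPU and 1.44 (0.776 to 2.11) in control. TTR, which encodes transthyretin and is a classic target of HNF4A, FOXA, C/EBP and ONECUT proteins, stood at 1.32 FPKM in shDIS3L2, 2.40 in shHNRNPU and 4.09 in control, called lower in shDIS3L2 (-1.13) and not in shHNRNPU (-0.58).

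**Figure D5:**
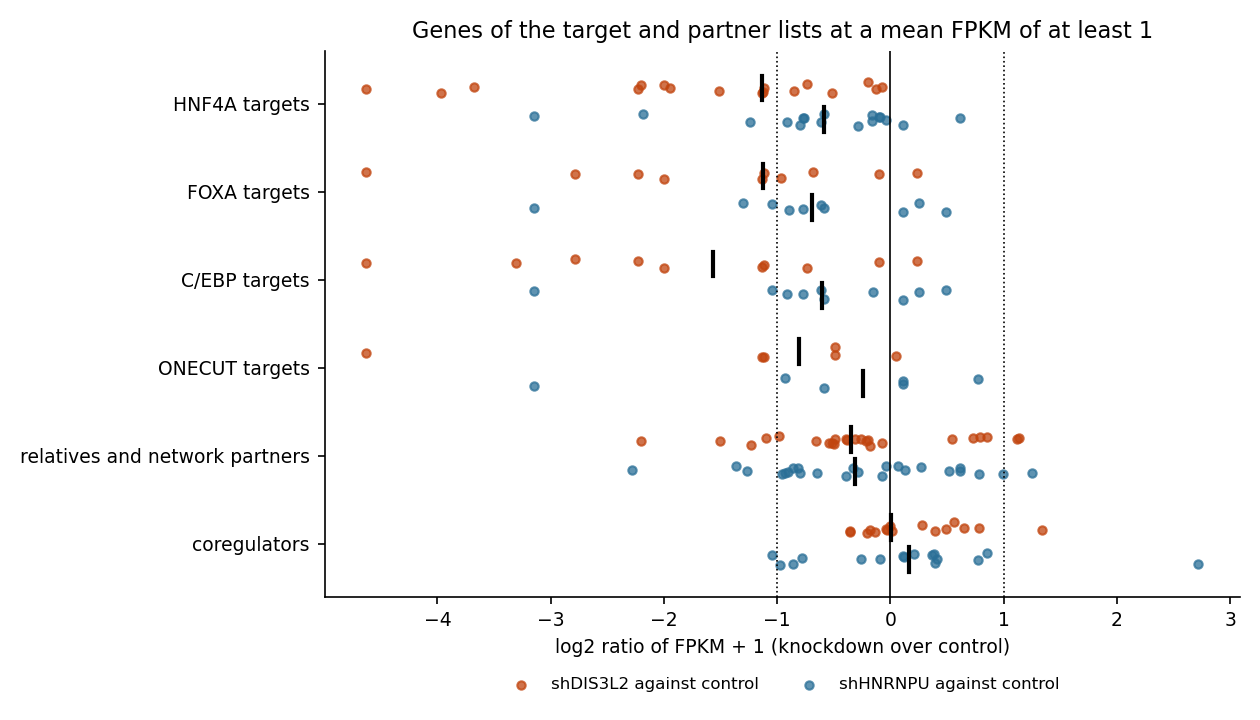
Log2 ratio of FPKM plus 1 against control (x axis) of each gene with a mean of at least 1 FPKM on the 4 target lists, the relatives and the coregulators, shDIS3L2 (upper row of each pair) and shHNRNPU (lower row), with vertical scatter for legibility, medians as black bars and the rule's limits dotted. The target lists have medians between -1.56 and -0.80 in shDIS3L2 and between -0.69 and -0.24 in shHNRNPU, and the point at the far right is NCOR1, listed at 0 in control.

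Among the 77 other genes on the lists with a mean of at least 1 FPKM and above 0 in every library, those nearest to each factor in the pair of log2 ratios against control were found. Likeness here rests on 3 libraries and a shared control. RXRA, a nuclear receptor partner, was one of the pair nearest to HNF4A (distance 0.17). HNF4G (0.07) and AFP (0.15) were nearest to FOXA1, F10, the gene of clotting factor X (0.04), and PCK1 (0.25) to FOXA3, and ATF5 (0.23) and CREBBP (0.26) to FOXA2. LIPC (0.40) and KLF15 (0.49) were nearest to CEBPA, SERPINA1 (0.53) and TF (0.54) to ONECUT1, and TLE3 and IGFBP1 (0.22 each) to PROX1.

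Markers of the labelled cell type were present. Of 14 hepatocyte markers, 13 were at a mean of at least 1 FPKM. The 14 summed to 9778 FPKM in shDIS3L2, 14518 in shHNRNPU and 22417 in control. SERPINA1 led each sum, at 2865, 6710 and 11439 FPKM. In shDIS3L2 6 of the 13 were called lower, AHSG (-3.14) and APOA1 (-3.97) the furthest, and 1 higher, and in shHNRNPU 4 were called lower and 0 higher. The keratins KRT8 and KRT18 were not called in either knockdown (log2 ratios of -0.36 and -0.34 in shDIS3L2 and -0.12 and -0.10 in shHNRNPU). Markers of cholangiocytes and progenitors summed to 196 FPKM in shDIS3L2, 136 in shHNRNPU and 124 in control, led by EPCAM in each. Of 7 measured, 3 were called higher in shDIS3L2, KRT7 (2.04), SOX4 (1.24) and SOX9 (1.12), and 1 in shHNRNPU, AQP1 (1.15), which shares its locus with other names. These sums differed between the same libraries as the factors, and their part in the results above was not tested.

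Markers of other cell types stood mostly below 1 FPKM, with lysozyme (LYZ) the main exception. A listed 0 in these tables does not show absence, since NCOR1 was also listed at 0 in shDIS3L2 and control. Fibroblast and stellate markers summed to 3.25 FPKM in shDIS3L2, 2.41 in shHNRNPU and 3.88 in control, with LUM listed at 0 in every library. Of 9 endothelial markers, 8 were found, and these summed to 3.69, 1.19 and 0.293 FPKM in shDIS3L2, shHNRNPU and control, with PDPN and KDR listed at 0 in every library. LYVE1, a hyaluronan receptor of lymphatic endothelium and liver sinusoids, was the endothelial marker called higher in shDIS3L2, at 3.65 FPKM (2.96 to 4.34) against 0.174 (0 to 0.426) in control. The blood cell markers, leaving out CD68 with its merged locus, summed to 34.97, 71.8 and 182 FPKM in shDIS3L2, shHNRNPU and control, nearly all of it LYZ, with CD3E and HBB listed at 0 throughout. LYZ stood at 33.5 FPKM (30.8 to 36.3) in shDIS3L2, 70.8 (66.5 to 75.2) in shHNRNPU and 181 (172 to 190.2) in control, called lower in both knockdowns (-2.40 and -1.34). Its control level was above that of each of the 8 factors, and its part in their results was not tested. Among pancreas and gut factors, 6 of 7 had a mean below 1 FPKM, and the intestinal homeobox gene CDX2 stood at 0.908 FPKM (0.413 to 1.40) in shDIS3L2, 3.17 (2.38 to 3.96) in shHNRNPU and 6.77 (5.64 to 7.89) in control, called lower in shDIS3L2 (-2.03) and not in shHNRNPU (-0.90).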

How the data were processed

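RNA of 3 libraries was used. Per the submitters' processing notes, TopHat2 2.0.12, Cufflinks 2.2.1 and build hg19 were used. Per the file headers, the authors deposited FPKM per gene with a lower and an upper bound, taken here as 95%, and a status. Identifiers show that loci were assembled per library, so bounds and merged names can differ. The sources used here name no annotation release, masking or normalization option. FPKM are not counts: of values up to 20 fragments by interval width, 32.9%, 31.5% and 32.4% in shDIS3L2, shHNRNPU and control were whole within 0.02, so no count test was run.

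Genes were matched by name and overlapping bounds, keeping the locus with the highest mean FPKM. Ratios are log2 of FPKM plus a pseudocount of 1, used as deposited, and understate changes of low genes. The rule was run on simulated data with planted changes and noise drawn only from the interval widths of control. That simulation held no differences among cultures, so it cannot say how often the rule calls those. The background was all distinct loci with a mean of at least 1 FPKM. The ends of a ratio's range set the lower bound of one library against the upper bound of the other. Named were all members, up to 4 called genes per list and comparison with the largest ratios, neighbours within 10 kb at 1 FPKM or more, and the 2 nearest genes per member. KRT8, KRT18, EPCAM, CEBPG, ONECUT3 and neighbours below 1 FPKM were added after their values were seen. Start windows are RefSeq's, matched for 6 of 8 members by symbol. Some listed genes are not reported here by name. The members and lists were chosen with earlier results of these data known. Python 3.11.15, numpy 2.4.6 and pandas 2.3.3 were used.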

Additional observations from a re-analysis of the deposited data

How the results depend on the processing

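Against control, 4 calls in shDIS3L2 and 2 in shHNRNPU stood under a pseudocount of 0.1, both rescalings, the size of the ratio alone, a mean of at least 1 FPKM and summed loci. With a pseudocount of 5, 2 calls remained in shDIS3L2 (FOXA1 -0.87 and FOXA3 -0.95 missed the rule) and 1 in shHNRNPU against shDIS3L2. That comparison, 2 calls as reported, also had 1 after median-of-ratios or upper-quartile rescaling, because FOXA3 fell below the rule, and 4 at a threshold of 0.5, where HNF4A and FOXA2 joined. Against control at that threshold, shHNRNPU had 3 calls, 2 lower and 1 higher, the higher one being FOXA2 (0.78). The shDIS3L2 library kept 4 calls there, all lower. Loci with the same bounds in both libraries left 2 calls in shDIS3L2 and 1 in shHNRNPU against shDIS3L2, since FOXA1 and ONECUT1 were left out of the first and ONECUT1 of the second. With settings added after the data were seen, bounds within 1% left 3 of 4 calls in shDIS3L2 against control and 1 in shHNRNPU against shDIS3L2, and leaving out merged loci, CEBPA among them, left 3 of 4 in shDIS3L2 and 1 in shHNRNPU against control. With a pseudocount of 5, targets called lower numbered 7 in place of 11 (HNF4A) and 1 in place of 3 (ONECUT) in shDIS3L2, and 1 in place of 3 (FOXA) and 1 in place of 2 (C/EBP) in shHNRNPU. Relatives called lower then numbered 1 in place of 4 in shDIS3L2 and 0 in place of 3 in shHNRNPU, and hepatocyte markers 1 in place of 4 in shHNRNPU. At a threshold of 0.5, targets called lower in shHNRNPU numbered 8 (HNF4A), 6 (FOXA) and 5 (C/EBP), beside 14, 8 and 8 in shDIS3L2. Median-of-ratios rescaling gave 6 relatives called lower in shHNRNPU in place of 3. No call of a factor changed sign. Each group had 1 library, so none could be left out. No paired analysis was possible because the labels give no replicate numbers. Wide intervals limit what can be read of ONECUT2.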

Other observations

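The fibrinogen chain genes, whose products form the clot and which C/EBP proteins are known to activate, differed among themselves in shDIS3L2. FGB stood at 17.9 FPKM (15.9 to 19.9) in shDIS3L2, 1.93 (1.002 to 2.87) in shHNRNPU and 6.21 (5.08 to 7.34) in control, called higher in shDIS3L2 (1.39) and lower in shHNRNPU (-1.30). FGG stood at 37.1 FPKM in shDIS3L2, 8.91 in shHNRNPU and 19.1 in control, called lower in shHNRNPU (-1.02) and just short of the rule in shDIS3L2 (0.93). FGA stood at 298 FPKM in shDIS3L2, 195 in shHNRNPU and 564 in control, called lower in shHNRNPU (-1.53) and short of the rule in shDIS3L2 (-0.92). With ALB, these were the 4 hepatocyte markers called lower in shHNRNPU.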
